A study of Mus musculus with 7 samples.

Results

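The nuclei described here were NPY interneurons of the mouse primary visual cortex (V1) that held at most 1 transcript each of Sst and Vip. They were chosen from single-nucleus RNA-seq counts of unique molecular identifiers (UMIs, each standing for 1 captured transcript). A nucleus was kept when it held more than 200 UMIs of mouse genes, and it was taken as an NPY nucleus when it held at least 2 UMIs of Npy, at least 1 UMI of Gad1 and Gad2 together, at most 1 of Sst and at most 1 of Vip. This rule picked 341 of 32335 kept nuclei, or 1.05% (95% exact binomial interval 0.946 to 1.17). All levels of these 5 genes follow from the rule and are given as description.

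All nuclei came from 1 sample, in which adult male C57BL/6J mice aged 6 to 10 weeks carried an AAV9 library of candidate gene regulatory elements (GREs) injected into V1. The label names the virus SST PESCA AAV9. According to the paper, its GREs were conserved regions chosen for the highest open-chromatin (ATAC-seq) signal in SST over PV and VIP interneurons. Each GRE sat upstream of a minimal promoter that drove GFP, and its transcripts carried a barcode that named the GRE. There was no uninjected group, so every nucleus compared below came from injected tissue and the mice carried no other allele or agent in the labels. According to the methods 2 mice gave 5 inDrops libraries each, but the labels tie no library to an animal, and the libraries are named here by set and number (1-1 to 2-5). With 1 sample no test between groups was possible: intervals cover counting error only, and the range over the 10 libraries is given beside them as a description.

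Neuropeptide Y is a peptide transmitter that cortical interneurons release along with GABA, and it acts on G protein-coupled receptors that dampen transmitter release and excitability. In cortex it is made by a part of the somatostatin interneurons and by neurogliaform cells, late-spiking interneurons of small, dense axonal arbors that release GABA diffusely. Neurogliaform cells are marked by Lamp5, a lysosome-associated membrane protein of GABAergic terminals, and, in the outermost layer, by Ndnf, a secreted glycoprotein, and Reln, the extracellular matrix protein reelin.

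The GREs were mouse genomic sequence, and 2 of the 5 top hits of the study's screen are printed here because their barcodes differed in the NPY nuclei. Over all libraries GRE80 was the most enriched of these 5 there and GRE22 the least, but the order did not hold in each library set: GRE12 stood above GRE80 in set 1 alone and below GRE22 in set 2 alone. The sequences are the plus strand of GRCm38, 5′ to 3′, as read from that genome at the deposited coordinates, with the homeodomain core motif TAATTA in capitals. GRE80 spans chr4:94392091-94392390, inside the noncoding gene Gm12648 but in none of its exons, with Caap1 as the nearest protein-coding gene at 107.7 kb, and GRE22 spans chr2:69084462-69084761 in an intron of Cers6, a ceramide synthase.
GRE80: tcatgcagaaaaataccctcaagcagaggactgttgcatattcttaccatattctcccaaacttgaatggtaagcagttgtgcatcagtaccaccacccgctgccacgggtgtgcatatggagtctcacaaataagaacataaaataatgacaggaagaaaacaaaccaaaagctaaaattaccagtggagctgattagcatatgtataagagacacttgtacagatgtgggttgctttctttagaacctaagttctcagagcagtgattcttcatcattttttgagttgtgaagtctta
GRE22: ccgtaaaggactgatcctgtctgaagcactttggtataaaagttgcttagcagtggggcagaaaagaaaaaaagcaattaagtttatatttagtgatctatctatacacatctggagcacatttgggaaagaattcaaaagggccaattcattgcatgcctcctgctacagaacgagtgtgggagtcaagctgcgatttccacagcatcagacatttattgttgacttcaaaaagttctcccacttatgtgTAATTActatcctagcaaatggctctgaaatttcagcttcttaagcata
The cloned inserts also held flanking genomic sequence on each side, according to the methods, so the motif search and GC content cover only the GRE as deposited. The motif is its own reverse complement, so both strands were searched at once. It occurred once in GRE22, was not among the letters of GRE80, and was held by 18 of the 130 GREs of the same 300-base length (13.8%). The GC content of the pair was alike, at 39.3% in GRE80 and 39.0% in GRE22.

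The 10 libraries held 2457 to 3629 kept nuclei and 2496224 to 3041931 UMIs each, and 25 to 45 NPY nuclei (0.830 to 1.40% of the kept nuclei of a library). The share was 1.01% in set 1 (179 of 17656) and 1.10% in set 2 (162 of 14679). NPY nuclei were 6.20% of the 5498 kept nuclei with a Gad1 or Gad2 UMI and 41.9% of the 813 kept nuclei with at least 2 Npy UMIs. The median NPY nucleus held 990 UMIs (range 204 to 3921), against 708 in all other kept nuclei (n = 31994) and 1058 in the other GABAergic nuclei, which held a Gad1 or Gad2 UMI and did not meet the rule (n = 5157). Levels below are therefore given as pooled UMIs per 10000, computed over the 369337 UMIs of the NPY nuclei. At this depth 3 UMIs, the limit that a count of 0 allows, correspond to 0.0812 per 10000. The name of the other GABAergic nuclei stands for their Gad UMI only. They held the excitatory marker Slc17a7 at 2.90 per 10000, near the 3.65 of all other kept nuclei, and the GABA transporter gene Slc32a1 at 2.26. The SST nuclei with Npy, PV nuclei and VIP nuclei described below held Slc17a7 at 0.585 to 1.14 and Slc32a1 at 5.73 to 7.22. How many of the other GABAergic nuclei were interneurons was not tested.

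Cell barcodes recurred between consecutive libraries of a set. Each pair of consecutive libraries shared 339 to 821 barcode names among kept nuclei, whereas other pairs of the same set shared 83 to 210 and pairs from different sets 51 to 95. Among NPY nuclei, 80 (23.5%) had a same-named kept nucleus in a consecutive library, and in 19 such pairs both nuclei met the rule. In these 19 pairs, 32 of 112 GREs (28.6%) seen in the nucleus with fewer viral UMIs were seen in its namesake too, against 17.2% over other pairs of NPY nuclei of a set. The log UMI totals of namesakes in consecutive libraries were negatively correlated, with r between -0.341 and -0.0693 over the pairs of libraries. Whether namesakes were a single nucleus was not tested. When only the deepest nucleus of each name and set was kept, 304 NPY nuclei remained of 27166, the ratio of Kit to all other kept nuclei was 47.0 in place of 46.0, that of Lamp5 2.19 in place of 2.20, and that of the mean viral UMIs 1.53 in place of 1.60.

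The label of NPY interneurons was checked against their markers first. Npy, on chr6:49822710-49829507 of GRCm38, was counted at 110 UMIs per 10000 in the NPY nuclei, with a median of 9 UMIs per nucleus (2 to 72). The library values ran from 80.6 to 153 (median 105). In the SST nuclei with Npy (at least 2 UMIs of each, n = 266) the Npy level was 49.2, in PV nuclei (n = 243) 0.293, in VIP nuclei (n = 278) 0.589 and in excitatory nuclei (n = 1845) 0.158. The level in NPY nuclei is set by the rule, so it stands here as a description only.

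Lamp5 (chr2:136052239-136069917) was counted at 8.50 UMIs per 10000 in NPY nuclei and 3.86 in all other kept nuclei, a ratio of 2.20 (interval 1.96 to 2.46). Its level by library was 7.85, 8.70, 6.83, 8.82 and 10.1 in libraries 1-1 to 1-5. It was 10.7, 10.0, 6.83, 7.53 and 8.12 in libraries 2-1 to 2-5. All 10 values lay above those of all other kept nuclei, which ran from 3.51 to 4.14. Lamp5 was also present in excitatory nuclei, at 3.83 per 10000, so that the contrast was larger against the other interneurons: 0.745 in SST nuclei with Npy, 0.480 in PV nuclei and 1.22 in VIP nuclei.

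Ndnf (chr6:65671590-65712326) was rarer and more uneven. Its level was 1.79 per 10000 in NPY nuclei against 0.125 in all other kept nuclei (ratio 14.3, interval 10.9 to 18.7), from 66 UMIs in 35 nuclei, 12 of them in a single nucleus. Without that nucleus the ratio was 11.8. It was at 0 in library 1-3 and at 4.44 in library 2-3, with the other 8 libraries between them and a median of 1.46, and it was above all other kept nuclei in 9 of 10 libraries. SST nuclei with Npy and PV nuclei each held 1 nucleus with an Ndnf UMI, and none was counted in 278 VIP nuclei.

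Reln (chr5:21884454-22344702, minus strand) could not serve as a marker in these tables. Only 2 UMIs were counted in NPY nuclei (0.0542 per 10000, against 0.0552 in all other kept nuclei), so that its presence in NPY nuclei was not detectable at this depth. The label thus rested on Lamp5 and Ndnf beside Npy, and 170 of 341 nuclei (49.9%, interval 44.4 to 55.3) held a UMI of Lamp5, Ndnf or Reln.

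Across all genes, 8825 had at least 500 UMIs over the kept nuclei and were compared, leaving out the 5 genes of the rule. In NPY nuclei 296 (3.35%) stood at a ratio of at least 2 against all other kept nuclei and 1036 (11.7%) at a ratio of at most 0.5, with a median ratio of 0.969. Against the other GABAergic nuclei 194 (2.2%) stood at a ratio of at least 2 and 839 (9.51%) at a ratio of at most 0.5, with a median of 0.962. These nuclei were chosen by their own transcripts, so the counts describe the class and are not a test of it. A ratio also moves with what the comparison nuclei hold.

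**Figure D1:**
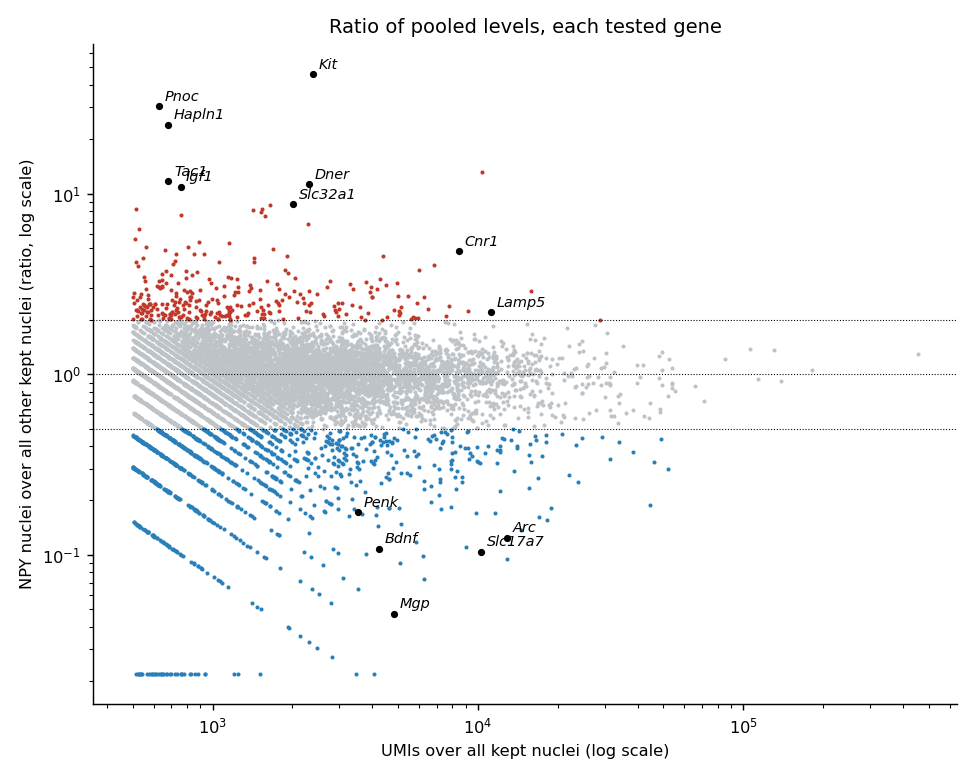
Ratio of the pooled level in NPY nuclei over that in all other kept nuclei (y axis, log scale) against UMIs over all kept nuclei (x axis, log scale), 1 point for each of 8825 genes. Red points have a ratio of at least 2 (296 genes) and blue points one of at most 0.5 (1036 genes), genes with no UMI in NPY nuclei are drawn at the lowest ratio above 0, and Kit at 46.0 stands highest.

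Kit, the receptor tyrosine kinase for stem cell factor, had the highest ratio of the 8825 genes. Its level (chr5:75574916-75656722) was 24.3 per 10000 in NPY nuclei against 0.529 in all other kept nuclei (ratio 46.0, interval 42.3 to 50.0) and 1.25 in other GABAergic nuclei (ratio 19.4, interval 17.6 to 21.4). Of those other GABAergic nuclei 4108 held no Npy UMI and at most 1 UMI each of Sst and Vip. Their median was 1 Gad UMI. When at least 2 Gad UMIs were asked of a nucleus, the ratio of Kit to other GABAergic nuclei was 11.7. In set 1 the library values were 24.0, 20.2, 22.1, 29.3 and 27.9. In set 2 they were 24.8, 29.6, 23.9, 23.5 and 18.3. All 10 lay far above all other kept nuclei, where the highest library value was 0.710. Kit was next highest in VIP nuclei, at 13.1 per 10000, and was near the floor in SST nuclei with Npy (0.239) and PV nuclei (0.0799).

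Shares of nuclei with a Kit UMI gave the same order at equal depth. Kit was found in 68.0% of NPY nuclei, and after thinning every nucleus to 300 UMIs, which left out 13 NPY nuclei, in 46.5%. The thinned share was 32.0% in VIP nuclei, 0.671% in SST nuclei with Npy and 0.219% in PV nuclei. In excitatory nuclei, taken as the class that should lack Kit, whose median depth was 1238 UMIs against 990, it was 0.645%, and 0.653% of the 15013 barcodes with at most 200 UMIs held a Kit UMI unthinned. The thinned share of Lamp5 was 23.1% in NPY nuclei, 2.10% in SST nuclei with Npy, 1.29% in PV nuclei, 3.23% in VIP nuclei and 9.82% in excitatory nuclei.

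**Figure D2:**
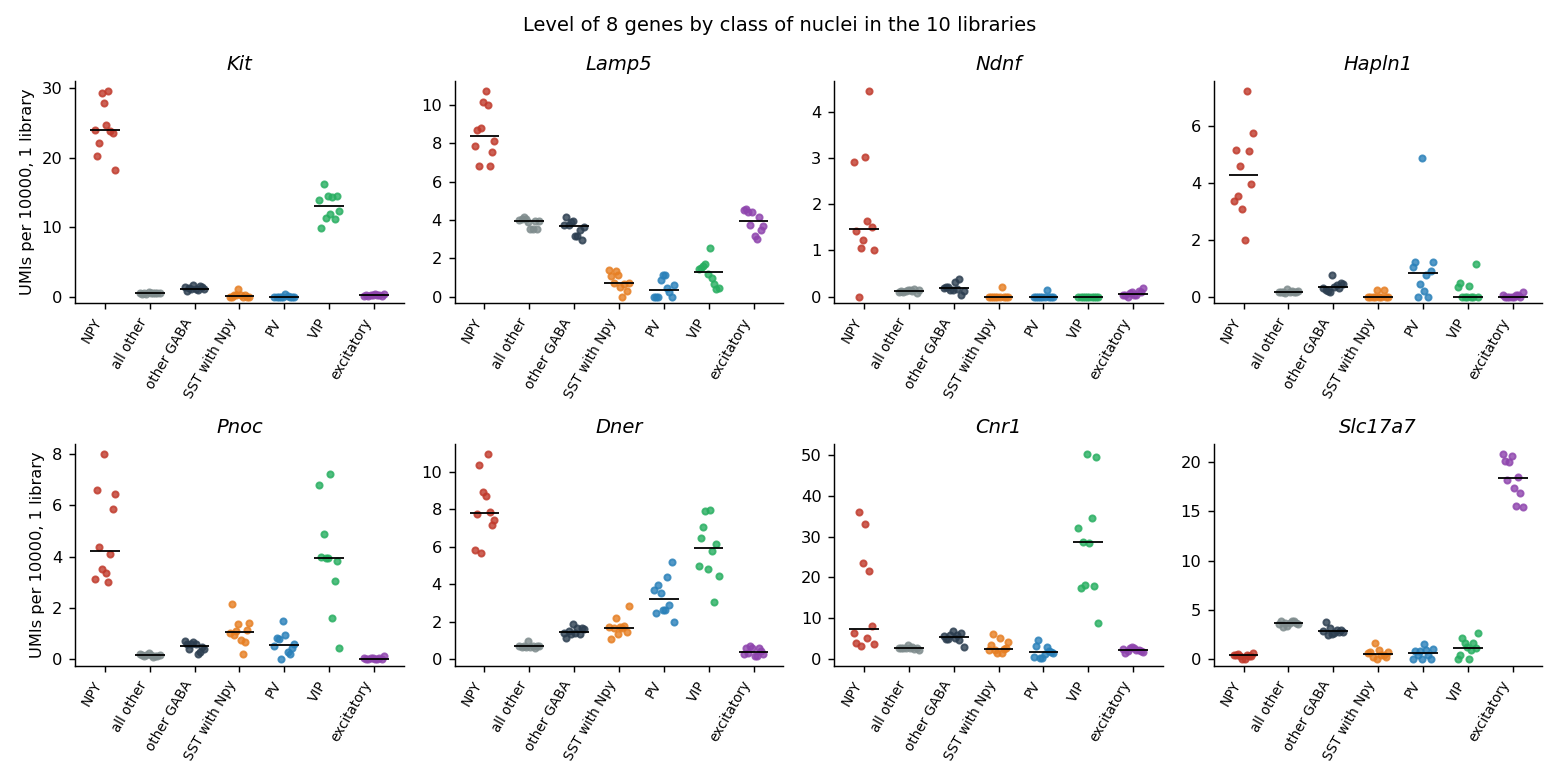
Level of 8 genes (y axis, UMIs per 10000) in 7 classes of nuclei (x axis), 1 point per library and a line at the median of the 10 libraries. For Kit, Lamp5, Hapln1, Pnoc and Dner every NPY point lies above every point of all other kept nuclei, Ndnf is at 0 in 1 NPY library, Cnr1 spreads from 3.18 to 36.0 among NPY libraries, and Slc17a7 lies at 0.677 or lower in each of them.

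After Kit, the genes with the highest ratios against all other kept nuclei included Pnoc, Hapln1, Tac1, Dner, Igf1, Slc32a1, Arl4c, Ptpro, Sema5a and Ptprm. Pnoc, the precursor of the opioid-like peptide nociceptin, was at 4.85 per 10000 (chr14:65400673-65425472, minus strand), and its ratio was 30.4. Pnoc ran from 3.03 to 7.99 over the libraries, against at most 0.243 in all other kept nuclei, and it too was shared with VIP nuclei, at 3.96. Hapln1, a link protein that holds hyaluronan and proteoglycans of the extracellular matrix together, was at 4.41 (chr13:89539796-89611652) with a ratio of 24.0, and in contrast to Kit and Pnoc it was low in VIP nuclei (0.235). The ratios of the other genes named here lay between 8.11 for Ptprm, a receptor tyrosine phosphatase, and 11.7 for Tac1, the precursor of substance P. Igf1 was higher in VIP nuclei than in NPY nuclei (9.30 against 2.57 per 10000), as was Ptpro (2.35 against 1.35). Arl4c, Sema5a and Ptprm were lower in VIP nuclei, at 3.45, 3.30 and 0.235 against 4.55, 4.03 and 3.71. For Sema5a the interval of the ratio of NPY to VIP nuclei (0.931 to 1.62) held 1. The 91 Tac1 UMIs lay in 26 NPY nuclei, with none in library 2-1. Tac1 was at 2.46 per 10000 in NPY nuclei and 1.79 in PV nuclei (ratio 1.38, interval 0.996 to 1.92).

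Slc32a1, which loads GABA into vesicles for release, was at 5.60 per 10000 in NPY nuclei, 5.83 in SST nuclei with Npy, 7.22 in PV nuclei and 5.73 in VIP nuclei. The intervals of its ratio to SST nuclei with Npy (0.792 to 1.17) and to VIP nuclei (0.788 to 1.22) both held 1, and that to PV nuclei (0.644 to 0.933) did not. Dner, a transmembrane ligand of Notch, was at 8.07 per 10000 in NPY nuclei. It was at 1.73 in SST nuclei with Npy, 3.38 in PV nuclei and 5.69 in VIP nuclei. The NPY values of Dner ran from 5.65 to 10.9 over the libraries, against 0.628 to 0.971 in all other kept nuclei.

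Against other GABAergic nuclei the highest ratios included those of Kit, Hapln1, Pnoc, Crispld1, Lmo2, Sema5a, Eps8, Jam2, Dner, Sema3c and Pip5k1b. Lmo2, a LIM-domain transcriptional cofactor, had a ratio of 7.35 from 35 UMIs in 28 NPY nuclei. Sema5a and Sema3c, members of the semaphorin family of guidance cues, had ratios of 6.68 and 4.65. Jam2, a junctional adhesion molecule, had a ratio of 5.50 and Dner one of 5.35. Sema3c was at 3.34 per 10000 in VIP nuclei and 2.79 in NPY nuclei. The interval of the ratio of NPY to VIP nuclei (0.621 to 1.13) held 1. With at least 2 Gad UMIs per nucleus the ratio went from 11.9 to 6.90 for Hapln1, from 9.83 to 5.62 for Pnoc, from 5.35 to 3.41 for Dner and from 3.77 to 1.84 for Tac1, whereas that of Crispld1 went from 7.59 to 12.6.

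Of the neurogliaform list, 7 genes beside Npy passed the minimum of 500 UMIs. Against all other kept nuclei 4 of 7 had a ratio of at least 2 (Kit, Hapln1, Lamp5 and Car4, a carbonic anhydrase, at 2.76), beside 3.35% of all genes, and none a ratio of at most 0.5, beside 11.7%. The median ratio of the list was 2.20, beside 0.969 over all genes compared. Id2, an inhibitor of bHLH transcription factors, was at 4.09 against 2.94 and was higher in 10 of 10 libraries (ratio 1.39). Gabrd, the delta subunit of extrasynaptic GABA-A receptors, had a ratio of 1.43 and Cacna2d1, a calcium channel subunit, one of 1.06. Cplx3, a complexin of the release machinery, did not reach the minimum but was at 1.16 against 0.0875 and was higher in 10 of 10 libraries.

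The same 7 genes separated NPY nuclei from each of the other interneuron classes to different degrees. Against SST nuclei with Npy all 7 had a ratio of at least 2, beside 10.8% of all genes, and the median was 11.4. None had one of at most 0.5, where 6.48% of all genes did. Against PV nuclei 6 of 7 did, beside 11.5% of all genes, and Gabrd had a ratio of at most 0.5, beside 7.76% of all genes. Against VIP nuclei 4 of 7 did, beside 13.4% of all genes, with a median of 2.60. The other 4 of the 11 genes of the list were under the minimum and were not compared.

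Genes of both origins of interneurons were among those with a high ratio. Of the regulators and markers of interneurons from the caudal ganglionic eminence, all 3 that passed the minimum had a ratio of at least 2 against all other kept nuclei, beside 3.35% of all genes: the nuclear receptor Nr2f2 at 2.27, the chemokine Cxcl14 at 3.00 and the cannabinoid receptor Cnr1 at 4.81. Against VIP nuclei, which share that origin, all 3 had a ratio of at most 0.5, beside 8.77% of all genes. Of those from the medial ganglionic eminence 3 passed the minimum, of which 2 had a ratio of at least 2 and none one of at most 0.5, beside 3.35% and 11.7% of all genes. Against SST nuclei with Npy none of the 3 had a ratio of at least 2 and 1 had one of at most 0.5, beside 10.8% and 6.48%, and the counts against PV nuclei were the same, beside 11.5% and 7.76%. The transcription factor Maf had a ratio of 6.78 and Satb1 one of 0.503. Lhx6, a defining factor of that origin, was under the minimum, with 8 UMIs in 7 NPY nuclei (0.217 per 10000, against 0.718 in SST nuclei with Npy and 0 in VIP nuclei).

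All 6 genes of GABAergic identity that passed the minimum, the genes of the rule aside, had a ratio of at least 2 against all other kept nuclei, beside 3.35% of all genes. They included Slc32a1, Erbb4, the neuregulin receptor (7.48), the homeobox gene Dlx6 (2.85), and Abat, which breaks GABA down (2.49). Against other GABAergic nuclei 4 of 6 did, beside 2.2% of all genes, and the ratio of Slc32a1 there went from 2.48 to 1.33 with at least 2 Gad UMIs.

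SST markers, of which the rule used only Sst, differed with the comparison. Of the 4 others that passed the minimum, 2 had a ratio of at most 0.5 against all other kept nuclei, beside 11.7% of all genes, and all 4 did against SST nuclei with Npy, beside 6.48%. The list of 10 summed to 3.41 per 10000 in NPY nuclei, 3.37 in all other kept nuclei and 29.4 in SST nuclei with Npy. Elfn1, a postsynaptic organiser of SST interneurons, was counted once in NPY nuclei, against 3.72 per 10000 in SST nuclei with Npy, and Grin3a, an NMDA receptor subunit, was at 0.596 against 9.23. Cort, the precursor of cortistatin, was at 1.03 per 10000 from 38 UMIs in 26 NPY nuclei, against 0.0790 in all other kept nuclei and 1.76 in SST nuclei with Npy.

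Of the 3 VIP markers that passed the minimum, Vip aside, 2 had a ratio of at most 0.5 against all other kept nuclei, beside 11.7% of all genes. The list of 6 summed to 5.63 per 10000 in NPY nuclei, of which the peptide gene Cck made up 4.98, and to 55.5 in VIP nuclei and 10.7 in all other kept nuclei. Calb2, which encodes calretinin, had 0 UMIs in NPY nuclei against 4.04 per 10000 in VIP nuclei, Crh had 3 UMIs against 15.1 per 10000, and Penk, the enkephalin precursor, had 8 against 18.9. Both Crh and Penk passed the minimum, and their ratios against other GABAergic nuclei were 0.0751 and 0.138. Of the 5 PV markers that passed the minimum, 4 had a ratio of at least 2 against all other kept nuclei, beside 3.35% of all genes: the potassium channels Kcnc1 (3.79) and Kcnc2 (2.04), Pvalb (2.36) and Tac1 (11.7). Against other GABAergic nuclei 1 of 5 did, beside 2.2%, and the median of the 5 was 0.878. Against PV nuclei 4 of 5 had a ratio of at most 0.5, beside 7.76% of all genes. Pvalb was among these 4, and its ratio there is set by the choice of PV nuclei, which asks for at least 2 Pvalb UMIs.

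The list of 6 genes for neuropeptide Y receptors, the related peptide Pyy and the peptidase Dpp4 summed to 0.569 per 10000 in NPY nuclei, 0.532 in SST nuclei with Npy, 0.266 in PV nuclei and 8.28 in VIP nuclei. Npy1r was counted at 0.298 per 10000 against 1.04 in all other kept nuclei (ratio 0.287), was lower in 10 of 10 libraries, and was highest in VIP nuclei (3.41). Npy5r was at 0.0812 against 0.190, from 3 UMIs. Npy2r, the presynaptic autoreceptor, had 2 UMIs in a single NPY nucleus and did not reach the minimum. Of the 12 genes for peptide processing and dense-core vesicles that passed it, none had a ratio of at least 2 and 1 had one of at most 0.5, beside 3.35% and 11.7% of all genes, so that these counts did not set the list apart. That gene was the convertase Pcsk2 (3.90 against 8.75 per 10000, ratio 0.445, lower in 10 of 10 libraries). The convertase inhibitor Pcsk1n was at 5.06 against 2.60 (ratio 1.95).

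The lists of receptors, channels and adhesion genes are to be read beside the 3.35% of all genes with a ratio of at least 2 and the 11.7% with one of at most 0.5. Of 13 GABA receptor subunits that passed the minimum, 2 had a ratio of at least 2, Gabra5 (2.18) and Gabrg3 (3.39), and none a ratio of at most 0.5. The ratio of Gabrg3, a gamma subunit, was 2.37 against other GABAergic nuclei and it was higher in 10 of 10 libraries. Among 11 receptors for other modulators, Cnr1, the adrenergic receptor Adra1b (3.09) and the dopamine receptor Drd1 (2.53) had a ratio of at least 2. The muscarinic receptors Chrm2 (0.400) and Chrm3 (0.371) and the cholecystokinin receptor Cckbr (0.243) had one of at most 0.5. Of 15 potassium and HCN channels 4 had a ratio of at least 2, among them Kcnc1, Kcnc2 and the A-type channel Kcnd3 (2.09), and 1 had one of at most 0.5. Of 10 synaptic adhesion genes the contactin-associated Cntnap2 (2.47) and Cntnap4 (2.07) had a ratio of at least 2 and Lrrtm4 one of 0.390, and 1 of 10 is near the share of all genes. Against other GABAergic nuclei 2.2% of all genes had a ratio of at least 2. There 2 of 13 GABA receptor subunits, 2 of 11 modulator receptors, 1 of 15 channels and 0 of 10 adhesion genes reached 2. Those at a ratio of at most 0.5 were 3 modulator receptors and 1 adhesion gene, beside 9.51% of all genes.

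Cnr1, the presynaptic cannabinoid receptor, was the gene most unevenly spread over the NPY nuclei. Its 503 UMIs lay in 105 nuclei, and 9 nuclei with at least 10 UMIs each held 311 of them, with 75 in a single nucleus. By library it was 6.51, 4.00, 36.0, 3.18 and 23.6 per 10000 in set 1. In set 2 it was 33.2, 5.12, 21.5, 8.28 and 3.72. It was high in 4 libraries and at 8.28 or lower in the other 6.

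Immediate-early genes, which neurons switch on with activity, were low in NPY nuclei. Of 9 such genes 8 had a ratio of at most 0.5 against all other kept nuclei, beside 11.7% of all genes. Arc, which acts on AMPA receptor trafficking, was at 0.569 against 4.57 per 10000 (ratio 0.124). Its library values were 0 in 5 libraries and at most 2.07, and did not overlap those of all other kept nuclei (4.27 to 4.97). Egr1 had a ratio of 0.161, Nr4a1 0.171, Junb 0.254 and Fos 0.323, and each of the 4 was lower in 10 of 10 libraries. Against other GABAergic nuclei 7 of 9 had a ratio of at most 0.5, beside 9.51% of all genes.

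The level of these genes in NPY nuclei was close to that in PV nuclei, where the 9 genes summed to 4.00 per 10000 against 4.09 in NPY nuclei. The sum was 7.34 in SST nuclei with Npy, 11.5 in VIP nuclei, 22.3 in excitatory nuclei and 18.8 in the barcodes with at most 200 UMIs. Over the libraries the sum ran from 2.10 to 6.78 in NPY nuclei. Against other GABAergic nuclei the activity-regulated genes Bdnf and Nptx2 had ratios of 0.127 and 0.133, from 6 and 4 UMIs in NPY nuclei. Over the alternatives tried these ratios ran from 0.0732 to 0.199 for Bdnf and from 0 to 0.251 for Nptx2. Bdnf was at 0.162 per 10000 in NPY nuclei, 0.107 in PV nuclei, 0.235 in VIP nuclei and 1.53 in excitatory nuclei. Nptx2 was at 0.108 in NPY nuclei, 0.106 in SST nuclei with Npy and 1.59 in excitatory nuclei. The glutamate receptor gene Grm7 was at 0.190 in NPY nuclei and 0.293 in PV nuclei, against 1.06 in SST nuclei with Npy and 1.06 in VIP nuclei. The 12 excitatory markers summed to 29.98 per 10000 in the other GABAergic nuclei against 10.3 in NPY nuclei, and the part of that RNA in the ratios was not tested.

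Markers of other cell types were low against all other kept nuclei. Of 12 excitatory markers 11 had a ratio of at most 0.5, beside 11.7% of all genes, and Slc17a7, the vesicular glutamate transporter of cortical excitatory neurons, was at 0.379 per 10000 in NPY nuclei, 18.0 in excitatory nuclei and 2.97 in barcodes with at most 200 UMIs. The level in excitatory nuclei is set by their choice, which asks for at least 2 Slc17a7 UMIs. The 12 markers summed to 6.36 to 17.6 per 10000 over the libraries of NPY nuclei and to 33.6 to 43.8 in all other kept nuclei. Of 6 astrocyte markers 5 had a ratio of at most 0.5 and Aqp4, the astrocyte water channel, was counted once. Col1a2, a collagen of vascular and meningeal cells, was not counted in NPY nuclei, against 1.44 per 10000 in all other kept nuclei, and Mgp and Igfbp7 were counted 3 times and once. The genes of lowest ratio also included Podxl and Cd9, counted once each, and Cyr61, with 2 UMIs.

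Oligodendrocyte RNA was uneven over the libraries of NPY nuclei, and 3 of 5 markers had a ratio of at most 0.5 against all other kept nuclei, beside 11.7% of all genes. None of the 5 did against other GABAergic nuclei, beside 9.51% of all genes, and 1 had a ratio of at least 2, beside 2.2%. The 5 oligodendrocyte markers summed to 0.614 to 22.7 per 10000 over the libraries (median 2.58), and to 40.3 in barcodes with at most 200 UMIs. Summed oligodendrocyte and vascular markers were higher in NPY nuclei than in the other 3 interneuron classes. The oligodendrocyte markers summed to 5.74 per 10000 over all NPY nuclei, 1.44 in SST nuclei with Npy, 2.32 in PV nuclei and 2.32 in VIP nuclei. The 5 vascular markers summed to 1.11 in NPY nuclei, ranging from 0 to 6.15 over the libraries, and to 0.266, 0.213 and 0.432 in those classes, against 4.93 in all other kept nuclei. Of these 5 vascular genes 4 had a ratio of at least 2 against SST nuclei with Npy and 5 against PV nuclei, beside 10.8% and 11.5% of all genes. Such ratios were near the floor. Vtn and Cldn5 had 1 and 3 UMIs in NPY nuclei, and SST nuclei with Npy held 0 UMIs of some of the 5 genes. Doublets were not called, and the part of free or doublet RNA in these values was not tested.

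The values at the edge of the rule showed how the class thinned out. GABAergic nuclei with 1 Npy UMI, just outside the rule (n = 142), held Kit at 4.49 and Lamp5 at 4.27 per 10000. Those with 2, just inside (n = 60), held Kit at 8.31 and Lamp5 at 2.97. Kit was at 16.4 in nuclei with 3 to 5 Npy UMIs (n = 74), 27.9 with 6 to 20 (n = 138) and 37.4 with more than 20 (n = 69). Kit was thus higher in each bin of Npy than in the bin before. The 35 nuclei that met the rule but for 2 or more Vip UMIs held Kit at 31.7 and Lamp5 at 0.561, and the 88 that met it but for a Gad UMI held Kit at 4.44. Only 5 nuclei met it but for exactly 2 Sst UMIs.

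NPY nuclei were not uniform. The 170 with a UMI of Lamp5, Ndnf or Reln and the 171 without differed in depth, with medians of 1057.5 and 892 UMIs, and the part of depth in the split was not tested. The level of Npy was 137 per 10000 in those with and 79.7 in those without, and that of Kit 32.7 and 15.0. Of 1362 genes with at least 60 UMIs over NPY nuclei, 26 had a ratio of at least 2 between them and 18 one of at most 0.5.

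Tac1, Pvalb and Kcnc2 were higher in the nuclei without these markers. Tac1 was at 5.04 per 10000 in them and 0.154 in those with a marker, and Pvalb at 2.52 and 0.103. Kcnc2, the potassium channel of fast-spiking cells, was at 7.05 and 1.44 and was higher in nuclei without a marker in 10 of 10 libraries. Kcnc4, a channel of the same family, went the other way, at 0.917 without and 2.11 with a marker (ratio 2.30, interval 1.26 to 4.38). Likewise Mpdz, a synaptic scaffold, had a ratio of 4.09 between nuclei with and without a marker. Parm1 had a ratio of 2.73 in the same direction and was higher in 10 of 10 libraries, and Hapln1 was at 6.06 with and 2.58 without.

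Pvalb and Kit almost never met in an NPY nucleus: 1 nucleus held both, of 20 with Pvalb and 232 with Kit. Lamp5 and Ndnf met in 28 nuclei, of 162 and 35. These counts led to a split of the NPY nuclei by UMIs of Kit, Tac1 and Pvalb, which was chosen after the values were seen and is given without a test.

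Nuclei with Kit and neither Tac1 nor Pvalb were the main group, 230 of 341 (67.4%), with 16 to 29 per library. They held Npy at 149, Lamp5 at 11.5, Hapln1 at 6.00 and Kcnc2 at 0.894 per 10000, and 146 of them had a UMI of Lamp5, Ndnf or Reln. A group of 38 (11.1%) held Tac1 or Pvalb, with 2 to 8 per library. Their median was 3 Npy UMIs, and they held Npy at 27.2, Kcnc2 at 16.3, Kcnc1 at 14.2, Cort at 3.46, Lamp5 at 0.692 and Kit at 1.73. They were also deeper, with a median of 1503 UMIs against 961.5. In levels of Kcnc2 and Kcnc1 they stood near the PV nuclei, at 14.9 and 17.0. Pvalb was at 7.96 in them and 19.9 in PV nuclei, levels that follow from how both groups were chosen. The remaining 73 (21.4%) held none of these 3 genes, with Npy at 52.3, Cnr1 at 24.2 and the peptide gene Cck at 8.75. A part of 51 nuclei (15.0%) held no UMI of Kit, Lamp5, Ndnf, Reln, Tac1 or Pvalb and could be placed by none of the markers.

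**Figure D3:**
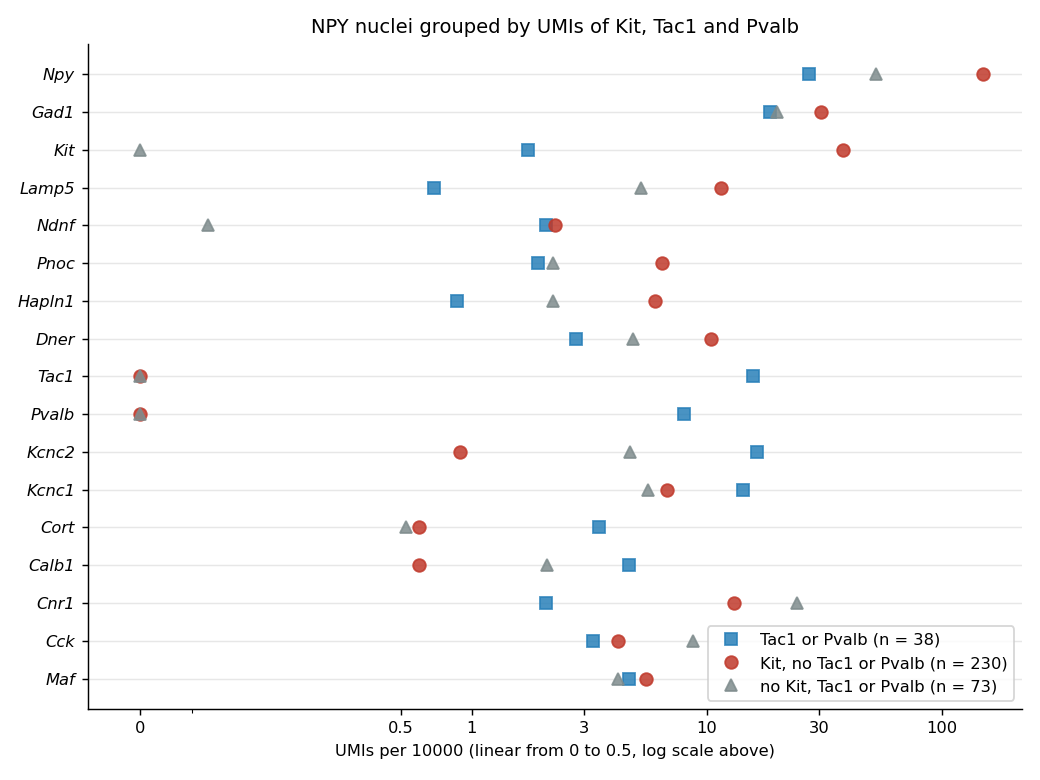
Level of 17 genes (x axis, UMIs per 10000, linear from 0 to 0.5 and logarithmic above) in NPY nuclei grouped by their UMIs of Kit, Tac1 and Pvalb, 1 marker per group and gene. Nuclei with Tac1 or Pvalb (squares, n = 38) hold Kcnc2 at 16.3 and Lamp5 at 0.692, and those with Kit and neither gene (circles, n = 230) hold Kcnc2 at 0.894 and Lamp5 at 11.5; Kit, Tac1 and Pvalb themselves follow from the grouping.

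The second readout of each nucleus was its viral barcode transcripts. Viral UMIs per NPY nucleus averaged 25.0, with a median of 8 and a highest value of 388. In all other kept nuclei the average was 15.6 and the median 4, which gave a ratio of 1.60. The mean by library was 34.6, 30.3, 23.8, 24.0 and 31.8 in set 1. In set 2 it was 22.3, 27.6, 27.2, 17.9 and 5.16. It exceeded that of all other kept nuclei in 9 of 10 libraries, and library 2-5 went the other way, at 5.16 against 7.49. Viral UMIs were found in 89.1% of NPY nuclei (interval 85.4 to 92.2) and in 86.1% of all other kept nuclei, and also in 79.4% of the 15013 barcodes with at most 200 UMIs.

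The excess was smaller at equal depth. Per 1000 non-viral UMIs NPY nuclei held 23.1 viral UMIs and all other kept nuclei 17.8. Scaled to 300 non-viral UMIs per nucleus the means were 6.53 and 5.26. The barcodes with at most 200 UMIs held a mean of 8.53 viral UMIs, or 70.4 per 1000 non-viral UMIs, and the part of free viral RNA in these values was not tested.

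Among the interneuron classes NPY nuclei lay below SST nuclei with Npy and PV nuclei and above VIP nuclei. SST nuclei with Npy held a mean of 82.1 viral UMIs and exceeded NPY nuclei in 9 of 10 libraries, and PV nuclei held 39.3 and exceeded them in 10 of 10. VIP nuclei held 17.2, below NPY nuclei in 9 of 10 libraries, and all other GABAergic nuclei together 26.6. Scaled to 300 UMIs the order was 16.0 in SST nuclei with Npy, 7.67 in PV nuclei, 6.53 in NPY nuclei and 5.98 in VIP nuclei. The whole library was chosen for SST-enriched ATAC-seq signal, and the part of that choice in this order was not tested. All other GABAergic nuclei together stood at 6.48 on that scale, so that their higher mean turned to a slightly lower one at equal depth.

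**Figure D4:**
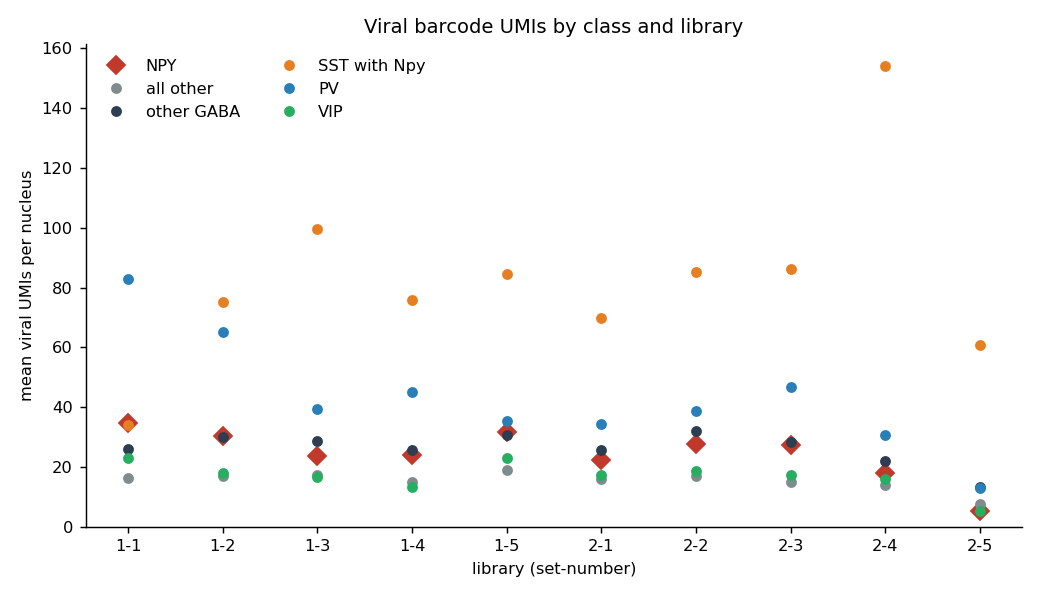
Mean viral UMIs per nucleus (y axis) in each of the 10 libraries (x axis, set and number) for NPY nuclei (diamonds) and 5 comparison classes (circles). NPY nuclei lie above all other kept nuclei in 9 libraries and below them in library 2-5, and below PV nuclei in all 10.

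The 38 NPY nuclei with Tac1 or Pvalb held more viral UMIs than the rest. Their mean was 62.6, against 18.5 in the 230 with Kit and neither gene and 26.0 in the remaining 73. Scaled to 300 UMIs the 3 means were 11.7, 5.15 and 8.08. Without the 38, the other 303 NPY nuclei held a mean of 20.3, a ratio of 1.30 to all other kept nuclei, and were higher in 7 of 10 libraries.

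For each GRE the 3 barcodes were summed and a fold was taken as the mean in NPY nuclei plus 0.01 over the mean in all other kept nuclei plus 0.01. UMIs of 234 of the 287 GREs were found in NPY nuclei, and 186 GREs had at least 300 UMIs over all kept nuclei. Of these 33 (17.7%) had a fold of at least 2 and 8 (4.3%) one of at most 0.5. The median fold was 1.40 (range 0.310 to 5.85), so the middle GRE was itself above 1. The median was 4.25 in SST nuclei with Npy, where 165 of 186 GREs had a fold of at least 2. These GREs were put in the library for their SST-enriched ATAC-seq signal, and the part of that choice in the medians was not tested. PV nuclei had a median of 2.03 and VIP nuclei one of 0.832.

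Single nuclei carried many of the folds. In 15 of the 33 GREs over a fold of 2, more than 33.3% of the UMIs in NPY nuclei lay in a single nucleus, and only 3 of the 33 were higher in at least 8 of 10 libraries. When the NPY nucleus with most UMIs of each GRE was left out, the median fold was 0.892, 9 GREs had a fold of at least 2 and 25 one of at most 0.5. No nucleus was left out of the comparison nuclei, so the fold of each GRE found in NPY nuclei had to fall. The highest fold was that of GRE254, at 5.85, of whose 42 UMIs 25 lay in a single nucleus, and it was 2.64 without that nucleus. The next were GRE155 (4.24), GRE62 (4.09), GRE63 (4.03) and GRE47 (3.80), which came to 1.23, 1.03, 2.37 and 2.18 without their top nucleus. Leaving out a single library also moved each of these folds by over 1.5 times. Without library 2-1 the fold was 2.92 for GRE254 and 2.51 for GRE63, without library 2-3 it was 1.18 for GRE155, and without library 2-2 it was 2.27 for GRE47. GRE254 stood at 1.86 in set 1 alone and 10.6 in set 2 alone. GRE62 was below 1 in set 2 alone (0.684) and without library 1-2 (0.789). The lowest folds were 0.310 for GRE48 (3 UMIs), 0.331 for GRE56 (9 UMIs, 0.210 without library 1-1) and 0.428 for GRE5 (0 UMIs). With so few UMIs these values were set in part by the added 0.01: with 0.001 and 0.1 in its place GRE5 stood at 0.0697 and 0.882 and GRE48 at 0.190 and 0.722.

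GRE80 was 1 of the 3 GREs over a fold of 2 that were higher in at least 8 libraries. It gave 226 UMIs in 50 NPY nuclei, a mean of 0.663 against 0.229 in all other kept nuclei and a fold of 2.81. In other GABAergic nuclei the mean was 0.580, and the ratio of the means was 1.14 (interval 0.994 to 1.31). Without the top nucleus the fold was 2.54. The library means in set 1 were 1.05, 0.838, 0.692, 0.833 and 0.387. In set 2 they were 1.54, 0.714, 0.355, 0.222 and 0.0400, and 9 of the 10 exceeded all other kept nuclei of the library. Its 3 barcodes, taken alone, gave folds of 1.51, 2.39 and 3.82.

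Among the 5 top hits of the study's screen, the fold in NPY nuclei was lower than in SST nuclei with Npy for each, which their selection for SST nuclei in these same data makes no separate finding. The same held for 172 of the 186 GREs (92.5%), in a library chosen as a whole for SST-enriched ATAC-seq signal. GRE80 stood at 2.81 against 15.8, GRE22 at 1.08 against 14.8, GRE44 at 1.74 against 12.1, GRE12 at 2.16 against 13.3 and GRE19 at 1.79 against 8.73. GRE12 was at 3.47 in NPY nuclei in library set 1 alone and at 0.902 in set 2 alone, where GRE22 was at 1.47. GRE22, the least enriched of the pair of sequences printed above, gave 45 UMIs in NPY nuclei. As a share of all viral UMIs, GRE80 took 26.5 per 1000 in NPY nuclei, 14.7 in all other kept nuclei, 21.8 in other GABAergic nuclei and 41.8 in SST nuclei with Npy. The 5 GREs together took 55.9 per 1000 in NPY nuclei, 108 in SST nuclei with Npy, 46.6 in PV nuclei and 22.8 in VIP nuclei, and 55.2 in other GABAergic nuclei and 42.6 in all other kept nuclei.

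**Figure D5:**
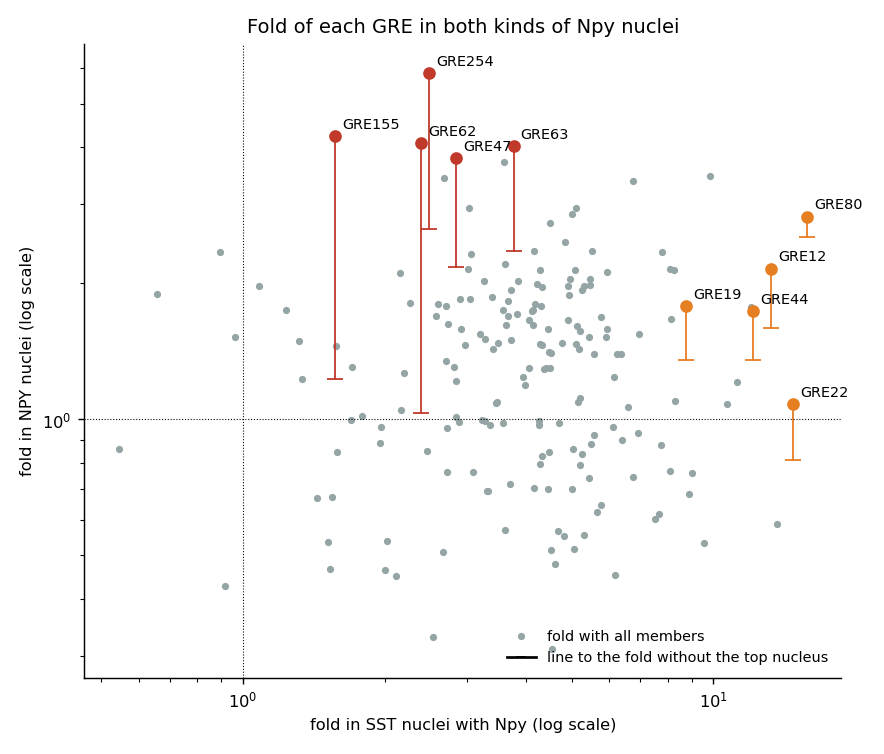
Fold of each of 186 GREs in NPY nuclei (y axis, log scale) against its fold in SST nuclei with Npy (x axis, log scale), 1 point per GRE. Orange points are the 5 top hits of the study's screen and red points the 5 with the highest fold in NPY nuclei, each with a line to the fold without its top nucleus, which ends at 1.03 for GRE62 and 2.54 for GRE80.

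The mean of GRE80, like that of all viral UMIs, was highest in the nuclei with Tac1 or Pvalb. It was 1.92 UMIs in those 38, 0.535 in the 230 with Kit and neither gene and 0.411 in the remaining 73. These means came from 73 UMIs in 12 nuclei, 123 in 32 nuclei and 30 in 6 nuclei. They exceeded the mean of all other kept nuclei in 7, 6 and 1 of 10 libraries. As a share of viral UMIs GRE80 took 30.7, 28.9 and 15.8 per 1000 in the 3 groups, close between the first 2. In the 303 nuclei without Tac1 or Pvalb the fold was 2.15, with a higher mean than all other kept nuclei in 6 of 10 libraries.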

How the data were processed

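Nuclei of V1 of AAV-injected mice were counted by the authors with the inDrops pipeline on GRCm38 with 1 contig added per viral barcode, and viral transcripts were enriched by PCR. The deposited UMI counts of 25871 genes and 1164 viral columns in 10 libraries were used as they stood, with 0 columns of per-sample values left unmapped. The deposited GRE table gave coordinates and barcodes of 287 GREs, and its columns of the authors' specificity folds were not used, nor were the ATAC-seq files.

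Kept nuclei held more than 200 non-viral UMIs, and no doublet caller was run. Levels are pooled UMIs per 10000, and their ratios carry exact conditional binomial intervals of 95% (Python 3.11.15, numpy 2.4.6, scipy 1.17.1). PV nuclei held at least 2 UMIs of Pvalb, a Gad UMI and at most 1 UMI each of Npy, Sst and Vip. VIP nuclei held at least 2 UMIs of Vip, a Gad UMI and at most 1 UMI each of Npy and Sst. Pvalb was not limited in VIP nuclei. Excitatory nuclei held at least 2 UMIs of Slc17a7 and 0 of Gad1 and Gad2. Genes with at least 500 UMIs were compared and a ratio of at least 2 or at most 0.5 was counted. The method was checked on simulated data. GREs were annotated with GENCODE M21.

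The text draws on the 12 genes of highest and 8 of lowest ratio with at least 30 UMIs counted or expected and the same direction in 8 of 10 libraries, fixed gene lists, and the GREs of highest and lowest fold, and any other gene was named after its values were seen. Some of these genes are not reported here. The nuclei and lists were chosen with earlier results of these data known.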

Additional observations from a re-analysis of the deposited data

Results flagged for a closer look

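Of 32 values examined over the 10 libraries of NPY nuclei, 2 had a library whose gap to the nearest other exceeded Dixon's critical value of 0.466, where chance gives about 1 in 20. Id2 was at 6.28 UMIs per 10000 in library 1-1, from 28 UMIs in 14 of 42 NPY nuclei, against 3.28 to 4.30 in the other libraries. Crh was at 0.470 in library 1-2, from 2 UMIs in 2 of 37 NPY nuclei, against 0 to 0.188 in the others.

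The 303 viral columns that belong to no GRE of the deposited table, which the comparisons did not use singly, held 80 UMIs in 48 NPY nuclei, above the 3 that a count of 0 allows. They made up 9.37 per 1000 viral UMIs in NPY nuclei and 11.4 in all other kept nuclei.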

How the results depend on the processing

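No paired analysis was possible because all libraries belong to 1 sample and no result comes from a test. The nuclei of namesake barcodes, the top nucleus of each GRE and the split by Kit, Tac1 and Pvalb were examined after the data were seen. The share of NPY nuclei, 1.05%, was 1.46% with a minimum of 500 UMIs per nucleus, 0.869% with at least 3 Npy UMIs, 0.903% with at least 2 Gad UMIs, 1.29% without nuclei holding Slc17a7 and 1.02 to 1.08% without each library in turn. The share with Lamp5, Ndnf or Reln was 55.9% with at least 3 Npy UMIs.

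With gene minimums of 200 and 2000 UMIs and a ratio of 1.5, the genes above the limit against all other kept nuclei numbered 540, 72 and 931 and those below it 1754, 311 and 1885. Against other GABAergic nuclei they numbered 433, 39 and 773 above and 1472, 228 and 1657 below. Leaving out each library in turn gave 261 to 294 and 977 to 1022 against all other kept nuclei. At the minimum of 2000 UMIs fewer genes were compared, and 4 neurogliaform genes stood at 2 or more against SST nuclei with Npy and 2 against VIP nuclei, where set 1 alone also gave 2.

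GREs with a fold of at least 2 numbered 16 with a minimum of 500 UMIs per nucleus, 5 with a pseudocount of 0.1 and 9 without the top nucleus. Those of at most 0.5 numbered 17 with the minimum of 500, 21 and 0 with pseudocounts of 0.001 and 0.1, 3 with a GRE minimum of 1000 UMIs, 21 in set 2 alone, 17 without namesakes of consecutive libraries, 25 without the top nucleus, and 8 to 14 without each library, with 14 without library 1-1. The fold of GRE62 turned below 1 in set 2 alone (0.684) and without namesakes (0.973), and ran from 0.789, without library 1-2, to 4.64 over the libraries left out. The fold of GRE12 was 0.902 in set 2 alone, and that of GRE22, 1.08, was 0.766 in set 1 alone and 0.864 without library 2-1. The fold of GRE80 lay between 2.32 and 3.29 and the ratio of viral UMIs between 1.24 and 1.72 over the alternatives of filters, rule, pseudocount and libraries. The fold of GRE80 was 2.15 without the nuclei with Tac1 or Pvalb and 1.51 from 1 of its 3 barcodes. Beyond the choices named, the cause of these moves was not tested. With 341 nuclei in 1 sample, genes of a few UMIs and the spread between animals could not be assessed.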
